A study of Homo sapiens with 8 samples.

Results

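Autophagy and the lysosome form one route by which a cell degrades its own proteins and organelles, and 34 genes of that route are described here. They were picked by symbol, with no measured value in the rule, though with earlier results of these data known. They are 34 of the 61517 genes listed in the count table. By role they comprise 6 genes of autophagosome initiation and nucleation (ULK1, ATG14, BECN1, UVRAG, ATG9A, WIPI1), 4 of ubiquitin-like conjugation including the ATG8 proteins (ATG5, ATG7, MAP1LC3B, GABARAPL1) and 3 autophagy receptors (SQSTM1, NBR1, TAX1BP1). A further 2 are transcription factors (TFEB, TFE3), 10 are lysosomal proteases and other hydrolases (CTSA, CTSB, CTSC, CTSD, CTSH, CTSL, CTSZ, HEXA, NEU1, GUSB), 5 are lysosomal membrane proteins (LAMP1, LAMP2, CD63, CD68, MCOLN1) and 4 are subunits of the V-ATPase (ATP6V0A1, ATP6V0D1, ATP6V1A, ATP6V1H). All but CTSL passed the expression filter, so 33 were tested.

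The RNA came from KYSE150, an established human esophageal squamous cell carcinoma line, in 8 libraries that form 4 groups of 2. Cells of the first group were kept hypoxic and received both sodium oxamate, which inhibits lactate dehydrogenase, and NALA, an abbreviation read here as sodium lactate from the treatment protocol. The other groups were hypoxia with oxamate, hypoxia alone and normoxia alone. All were grown in RPMI-1640 with fetal bovine serum, and no genetic change is labelled in any of them. The sources used here state no dose, duration or oxygen level, and all results are for 1 cell line. The study's title concerns lactylation of HIF-1α, the oxygen-regulated subunit of the transcription factor HIF-1.

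In macroautophagy the ULK1 kinase complex starts the formation of a membrane that closes around cargo. A lipid kinase complex built on BECN1, with ATG14 or UVRAG, marks that membrane, and ATG8 proteins such as LC3B and GABARAPL1 are then attached to it by a ubiquitin-like conjugation system. Receptors such as SQSTM1 bind both ubiquitinated cargo and ATG8 proteins. The closed vesicle fuses with the lysosome, which the V-ATPase acidifies and in which cathepsins and glycosidases degrade the contents. TFEB and TFE3 are transcription factors that bind E-box elements in promoters of many lysosomal genes. The measurements below are of mRNA levels and not of autophagic activity.

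Promoter sequences of 6 members are shown, chosen after their values were seen. ULK1, ATG14, GABARAPL1 and SQSTM1 were the members at least 2-fold higher with lactate than with oxamate, MCOLN1 had the largest increase with oxamate over hypoxia, and the LAMP1 window held the most E-box copies. Promoter windows of 300 bases, from 250 before to 50 after a RefSeq start (GRCh38.p14), were available for 28 of the 34 members. CTSB, HEXA, LAMP2, ATP6V1A, ATP6V1H and UVRAG were not matched. Both strands were searched for the E-box CACGTG, its extended form TCACGTGA, and the pentamers ACGTG and GCGTG, which are cores of hypoxia response elements. Capitals mark the E-box and the pentamers on either strand. A run of CACGC in capitals is therefore a match on the other strand, and each E-box also contains the first pentamer on both strands. The windows lie at chr19:7522374-7522673 (MCOLN1, plus strand), chr13:113296989-113297288 (LAMP1, plus strand), chr14:55411781-55412080 (ATG14, minus strand), chr12:131894372-131894671 (ULK1, plus strand), chr12:10212627-10212926 (GABARAPL1, plus strand) and chr5:179806143-179806442 (SQSTM1, plus strand). Each is written 5′ to 3′ on the strand of the gene.
MCOLN1: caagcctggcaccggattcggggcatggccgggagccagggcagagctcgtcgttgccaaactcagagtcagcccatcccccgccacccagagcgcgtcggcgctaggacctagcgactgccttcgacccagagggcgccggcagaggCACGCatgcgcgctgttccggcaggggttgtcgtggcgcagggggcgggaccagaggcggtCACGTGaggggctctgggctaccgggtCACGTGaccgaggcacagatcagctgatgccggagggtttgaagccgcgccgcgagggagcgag
LAMP1: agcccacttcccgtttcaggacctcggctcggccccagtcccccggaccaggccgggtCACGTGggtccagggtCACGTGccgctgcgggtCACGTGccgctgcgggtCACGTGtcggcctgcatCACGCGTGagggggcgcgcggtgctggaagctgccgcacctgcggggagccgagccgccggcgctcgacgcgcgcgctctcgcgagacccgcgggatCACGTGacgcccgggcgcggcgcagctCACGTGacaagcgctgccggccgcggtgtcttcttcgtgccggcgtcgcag
ATG14: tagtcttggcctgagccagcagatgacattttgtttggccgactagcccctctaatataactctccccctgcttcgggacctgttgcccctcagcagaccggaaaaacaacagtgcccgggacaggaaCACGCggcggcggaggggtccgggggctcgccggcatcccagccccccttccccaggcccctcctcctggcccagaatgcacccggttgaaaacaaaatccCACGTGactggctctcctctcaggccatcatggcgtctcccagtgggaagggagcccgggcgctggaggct
ULK1: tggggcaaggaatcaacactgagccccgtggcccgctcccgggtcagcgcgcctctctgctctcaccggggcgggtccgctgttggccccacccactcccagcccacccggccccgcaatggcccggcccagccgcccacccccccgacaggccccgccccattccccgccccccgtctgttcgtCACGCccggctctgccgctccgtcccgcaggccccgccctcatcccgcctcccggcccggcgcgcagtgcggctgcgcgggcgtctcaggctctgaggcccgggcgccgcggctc
GABARAPL1: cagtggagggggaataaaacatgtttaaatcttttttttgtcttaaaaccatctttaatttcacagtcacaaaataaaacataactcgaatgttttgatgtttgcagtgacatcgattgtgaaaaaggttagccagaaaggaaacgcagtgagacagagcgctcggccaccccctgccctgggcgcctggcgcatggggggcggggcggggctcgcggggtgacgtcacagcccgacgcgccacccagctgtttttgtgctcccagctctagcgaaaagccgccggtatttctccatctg
SQSTM1: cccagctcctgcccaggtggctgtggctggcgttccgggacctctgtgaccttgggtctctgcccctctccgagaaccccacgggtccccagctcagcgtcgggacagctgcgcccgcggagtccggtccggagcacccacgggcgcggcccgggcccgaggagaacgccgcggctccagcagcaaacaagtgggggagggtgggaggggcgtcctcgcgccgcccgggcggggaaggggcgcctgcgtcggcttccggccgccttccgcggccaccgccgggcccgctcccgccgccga

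CACGTG was present in 8 of the 28 members with a window (28.6%), against 2396 of all 27303 genes with windows (8.78%). These members were ATG14, ATP6V0D1, CD63, CTSA, CTSD, LAMP1, MCOLN1 and NEU1, and the LAMP1 window held 6 copies. The longer TCACGTGA was present in 4 members (14.3%), against 1.18% of all genes. ACGTG was present in 11 members (39.3%) and in 24.9% of all genes, and GCGTG in 19 members (67.9%) and in 40.6% of all genes. Because each CACGTG contains ACGTG, the 8 members with the E-box are among those 11. Only ATG5, ATG9A and ATP6V0A1 had ACGTG without CACGTG. The share of all genes with ACGTG but no CACGTG was not computed. The ULK1 window held a single GCGTG match, and the GABARAPL1 and SQSTM1 windows shown held none of the searched motifs. A gene counted once if any of its windows held the motif, and the 28 members have 42 windows, 8 of them for CD63. Per window, CACGTG was present in 8 of the 42 (19.0%), against 7.26% of all 35114 windows. These matches describe letters in the windows and were not tested as sites.

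Total counts per library lay between 21845676 and 29406061. Levels are given as TMM-scaled CPM, the counts of a gene relative to the scaled library total, and differences as log2 fold changes ± standard error from 1 edgeR quasi-likelihood model of all 8 libraries. A gene passed at a Benjamini-Hochberg adjusted p under 0.05 over the 15554 tested genes. Nothing in the labels states whether the libraries of a group were separate cultures, so p-values here reflect how far these libraries spread, which may be technical. Replicates lay close together, with a common biological coefficient of variation of 3.06%, and differences well below 2-fold passed. The libraries with oxamate and lactate spread further than the other pairs, at a chi-square of 4.83 per degree of freedom against 1.85 to 2.11 in the other 3 groups. The model shares its estimate of spread over all groups, so standard errors and p-values of the comparisons with lactate may be too small. In bulk RNA, fewer cells that express a gene cannot be told apart from less RNA of it per cell. The squamous epithelium markers KRT5, KRT14, KRT17, TP63, KRT6A and EPCAM were all present, with summed CPM of the library totals of 2736 and 2745 with oxamate and lactate, 3939 and 3928 with oxamate, 1707 and 1713 in hypoxia and 2581 and 2580 in normoxia. KRT5 made up most of each sum, while TP63 was at 157 and 156 CPM with oxamate and lactate, 71.1 and 69.4 CPM with oxamate, 268 and 271 CPM in hypoxia and 147 and 141 CPM in normoxia, highest where the sum was lowest. The part of these markers in the results below was not tested. The 6 leukocyte markers summed to between 0.0855 and 2.11 CPM in each library, with HLA-DRA at 0 throughout. The 5 markers of fibroblasts and endothelium summed to 0.916 and 1.21 with oxamate and lactate, 0.748 and 1.42 with oxamate, 9.81 and 9.09 in hypoxia and 3.12 and 3.53 in normoxia. COL3A1 was at 0 in every library, and COL1A1 made up most of each of these sums.

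**Figure D1:**
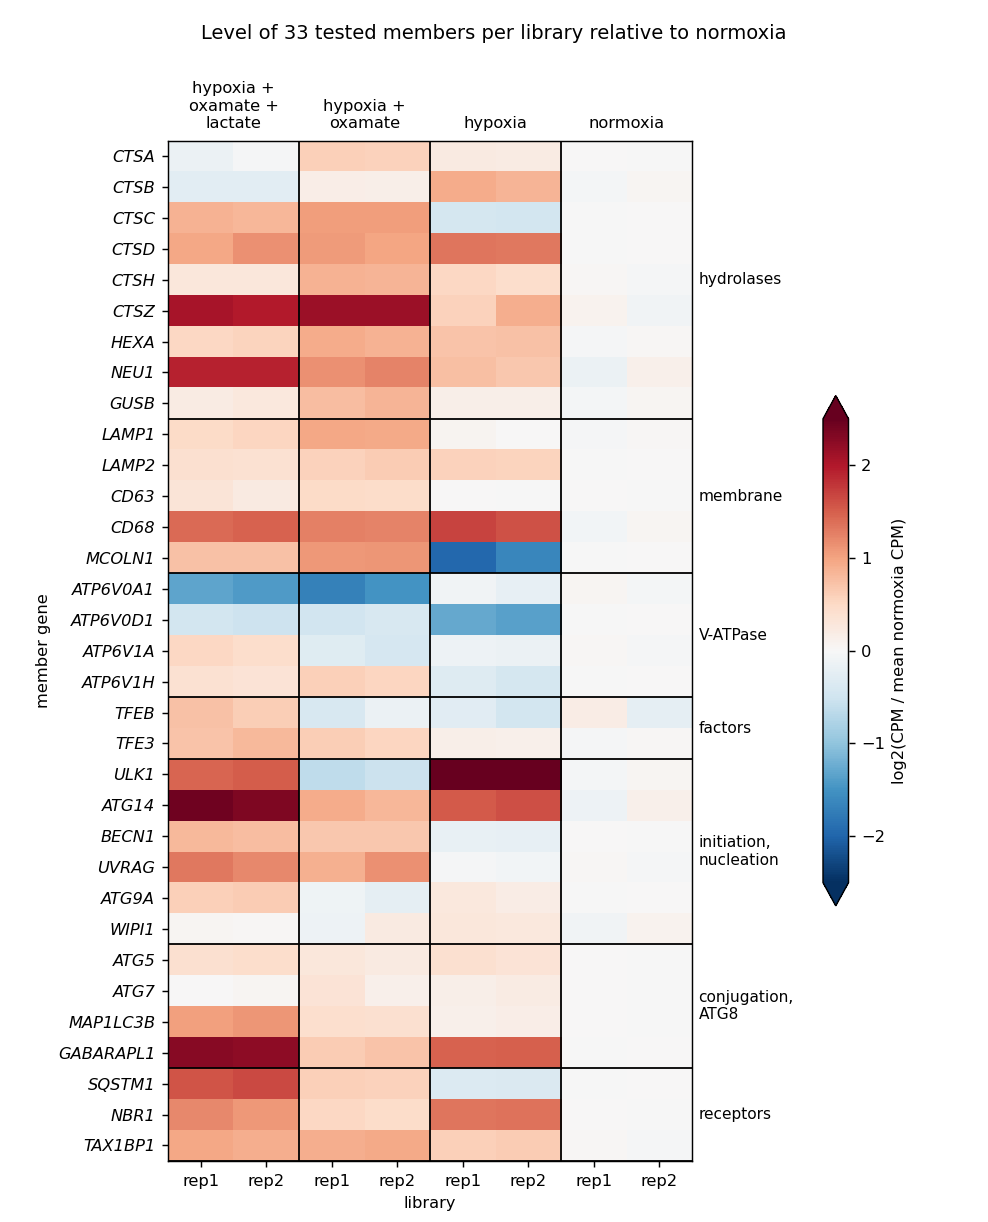
Level of each of the 33 tested members in each library, as log2 of its CPM over the mean CPM in normoxia, with members grouped by role from hydrolases at the top to receptors at the bottom. Red is above the normoxia mean and blue is below it, and values past the ends of the colour bar are shown at its end colours. ULK1 stands out in both hypoxia libraries, and MCOLN1 is blue only in hypoxia.

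The first comparison asked how these genes differed between hypoxia and normoxia, both without drug. In hypoxia 20 of 33 members were higher and 7 were lower, with a median log2 fold change of 0.22. Over all tested genes 36.7% were higher and 36.8% were lower, with a median of 0.02. The initiating kinase gene ULK1 was 11.5-fold higher, and CD68, ATG14, GABARAPL1, NBR1 and CTSD were each at least 2-fold higher. MCOLN1, which encodes the lysosomal calcium channel TRPML1, and the V-ATPase gene ATP6V0D1 were at least 2-fold lower. These 6 and 2 members compare with 15.6% and 13.1% of all tested genes that passed with at least a 2-fold difference upward and downward.

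The second comparison asked how oxamate altered these genes in hypoxia. With oxamate 18 members were higher and 11 were lower than in hypoxia, with a median of 0.25. Over all tested genes 35.7% were higher and 44.8% were lower, with a median of -0.20. MCOLN1, CTSC, CTSZ and UVRAG were at least 2-fold higher, and ULK1 and ATP6V0A1 at least 2-fold lower, where 14.3% and 27.5% of all tested genes were that much higher and lower. The hypoxia libraries serve in both of these comparisons, so a low or high hypoxia value enters each with opposite sign, and the values of each are given side by side below.

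The third comparison asked what lactate changed when it was added to oxamate. The oxamate libraries serve in it and in the second comparison, so a high or low oxamate value enters each with opposite sign. With lactate 15 members were higher and 12 lower than with oxamate, with a median of 0.03. The background was 33.2% higher and 31.7% lower, with a median of -0.02, so the members' counts stood near it in the lower direction. The direction of the members' median turned with other scalings, to -0.16 with upper quartile factors. ULK1, GABARAPL1, ATG14 and SQSTM1 were at least 2-fold higher, and no member was at least 2-fold lower, against 14.7% and 4.49% of all tested genes. By role, 10 of the 12 members that were lower encode hydrolases or lysosomal membrane proteins, and 10 of the 15 that were higher encode proteins of autophagosome formation or receptors. Of the tested members, 9 are hydrolases, 5 membrane proteins, 6 initiation and nucleation genes, 4 conjugation genes and 3 receptors. In some alternative analysis the calls of BECN1, UVRAG, ATG5, CD68 and TFE3, all higher, and of ATG7, lower, were lost.

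**Figure D2:**
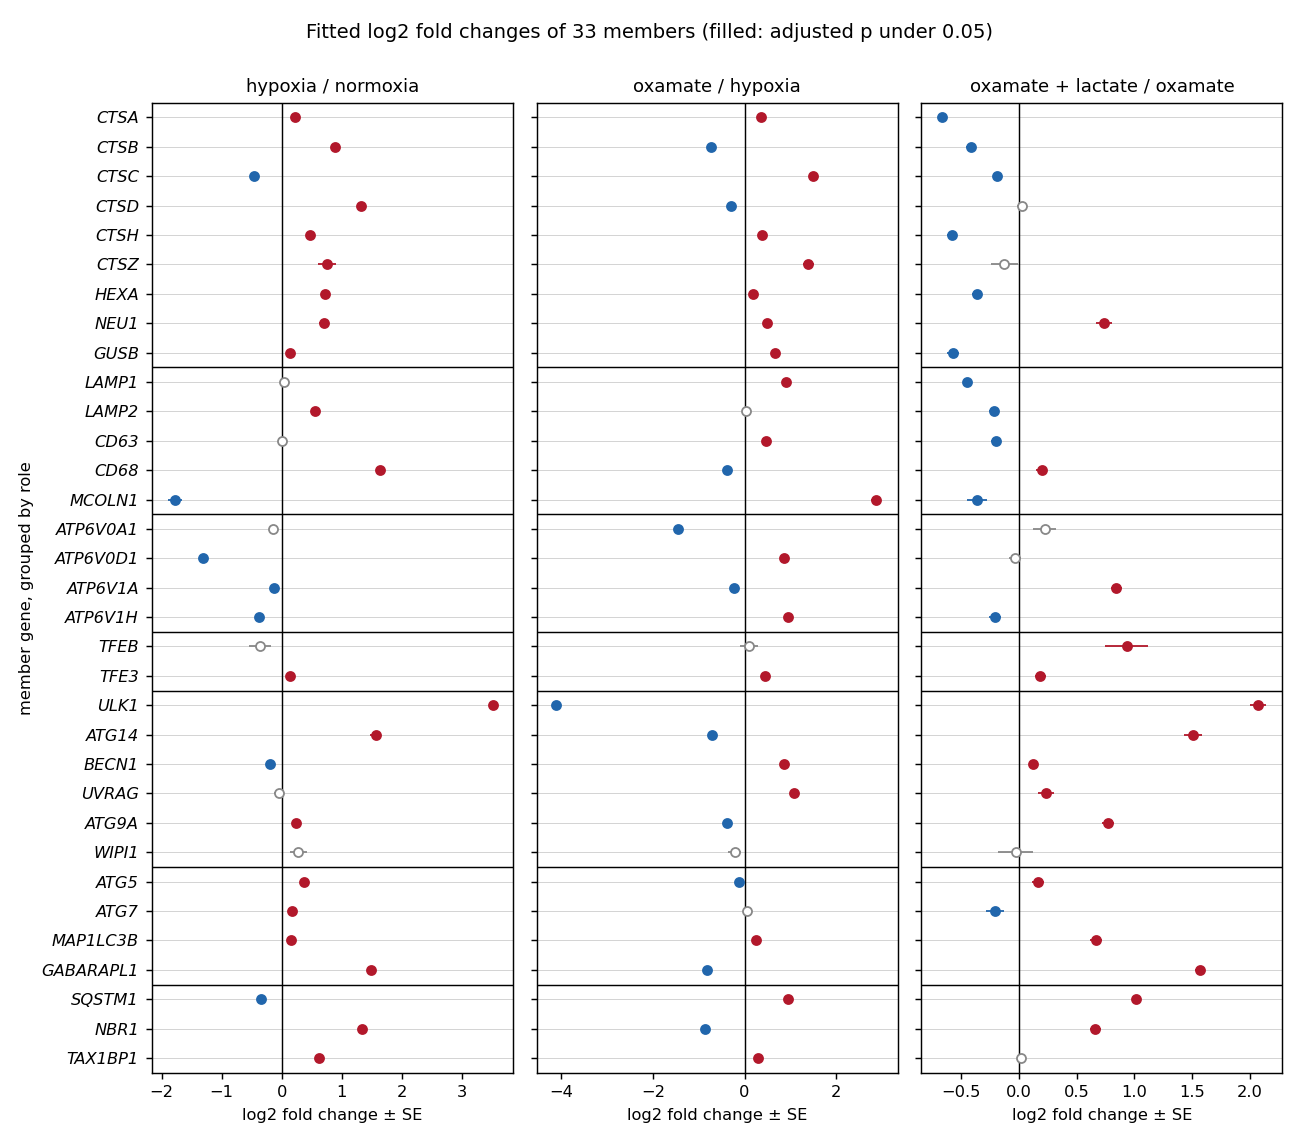
Fitted log2 fold changes (points) ± standard error (bars) of the 33 tested members in 3 comparisons, grouped by role from hydrolases to receptors, with a separate horizontal scale in each panel. Filled points passed at an adjusted p under 0.05, with red higher and blue lower, and open points did not pass. ULK1 lies at 3.53 in hypoxia over normoxia, -4.12 in oxamate over hypoxia and 2.07 in oxamate with lactate over oxamate.

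ULK1 (ENSG00000177169, chromosome 12 from 131894651 to 131923167 on GRCh38, GENCODE release 29), whose single-GCGTG promoter is printed above, showed the largest difference of any tested member in each of the first 3 comparisons. Its level was 41.8 and 43.5 CPM with oxamate and lactate, 9.79 and 10.5 CPM with oxamate, 176 and 176 CPM in hypoxia and 14.7 and 15.8 CPM in normoxia. No groups overlapped, and the level in hypoxia was above that of every other group. The difference was 3.53 ± 0.052 in hypoxia against normoxia (adjusted p = 2.58e-23, edgeR), -4.12 ± 0.058 in oxamate against hypoxia (adjusted p = 8.93e-24) and 2.07 ± 0.068 in oxamate with lactate against oxamate (adjusted p = 4.13e-17). With oxamate and lactate, ULK1 was lower than in hypoxia alone (-2.04 ± 0.047, adjusted p = 4.33e-20). With oxamate it was also lower than in normoxia (-0.59 ± 0.078, adjusted p = 5.36e-07).

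ATG14 (ENSG00000126775, chromosome 14 from 55366392 to 55411858, minus strand) directs the BECN1 lipid kinase complex to autophagosome formation. It was at 49.7 and 46.6 CPM with oxamate and lactate, 17.4 and 16.3 CPM with oxamate, 26.7 and 28.1 CPM in hypoxia and 8.37 and 10.02 CPM in normoxia. The 4 groups did not overlap, with normoxia lowest and lactate highest. It was higher in hypoxia than in normoxia (1.57 ± 0.085, adjusted p = 2e-13, edgeR), lower with oxamate than in hypoxia (-0.70 ± 0.079, adjusted p = 4.25e-08) and higher with lactate than with oxamate (1.51 ± 0.077, adjusted p = 8.61e-14). Unlike ULK1, ATG14 with lactate was also higher than in hypoxia alone (0.81 ± 0.071).

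UVRAG (ENSG00000198382, chromosome 11 from 75815167 to 76143195) encodes the partner that takes the place of ATG14 in a second BECN1 complex, with roles in vesicle maturation. Its level was 56.8 and 52.8 CPM with oxamate and lactate, 42.6 and 50.6 CPM with oxamate, 22.5 and 21.8 CPM in hypoxia and 23.4 and 22.5 CPM in normoxia. Both oxamate-treated groups lay above the groups without drug, while the hypoxia and normoxia levels almost met. The value in hypoxia against normoxia was -0.05 ± 0.080 and did not pass (adjusted p = 0.602, edgeR), and UVRAG was higher with oxamate than in hypoxia (1.07 ± 0.074, adjusted p = 3.36e-11). BECN1, the scaffold of both complexes, averaged 151 ± 2.09 CPM with oxamate and lactate, 138 ± 0.503 CPM with oxamate, 75.9 ± 0.749 CPM in hypoxia and 87.1 ± 1.02 CPM in normoxia (SD, n = 2 each). BECN1 was thus higher with oxamate than in hypoxia (0.87 ± 0.038) and lower in hypoxia than in normoxia (-0.20 ± 0.039), a sign opposite to that of ATG14 in both comparisons. It shares 300 exon bases with PSME3 on the opposite strand, whose mean level over all libraries was 222% of that of BECN1, and whether counting used strand is not stated.

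ATG9A, a membrane protein that supplies lipid to the forming autophagosome, averaged 83.8 ± 1.41 CPM with oxamate and lactate, 49.02 ± 2.84 CPM with oxamate, 64.4 ± 2.32 CPM in hypoxia and 54.8 ± 0.542 CPM in normoxia (SD, n = 2 each). It passed as higher in hypoxia than in normoxia (0.23 ± 0.049), lower with oxamate (-0.39 ± 0.050) and higher with lactate (0.77 ± 0.050), the same signs as ULK1 and ATG14 at smaller sizes. WIPI1, which binds the lipid made by the BECN1 complex, stayed between 4.84 and 6.41 CPM in all libraries and passed in none of the comparisons. In the initiation and nucleation group 3 of 6 genes were higher and 1 lower in hypoxia, 2 higher and 3 lower with oxamate, and 5 higher and none lower with lactate. The shares of all tested genes were those given above, 36.7% higher and 36.8% lower in hypoxia, 35.7% and 44.8% in oxamate over hypoxia, and 33.2% and 31.7% in lactate over oxamate. The count of 5 with lactate fell to 3 under upper quartile factors, the stricter low-count filter or DESeq2, where ULK1, ATG14 and ATG9A remained. Shares of all tested genes were not computed in those settings.

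**Figure D3:**
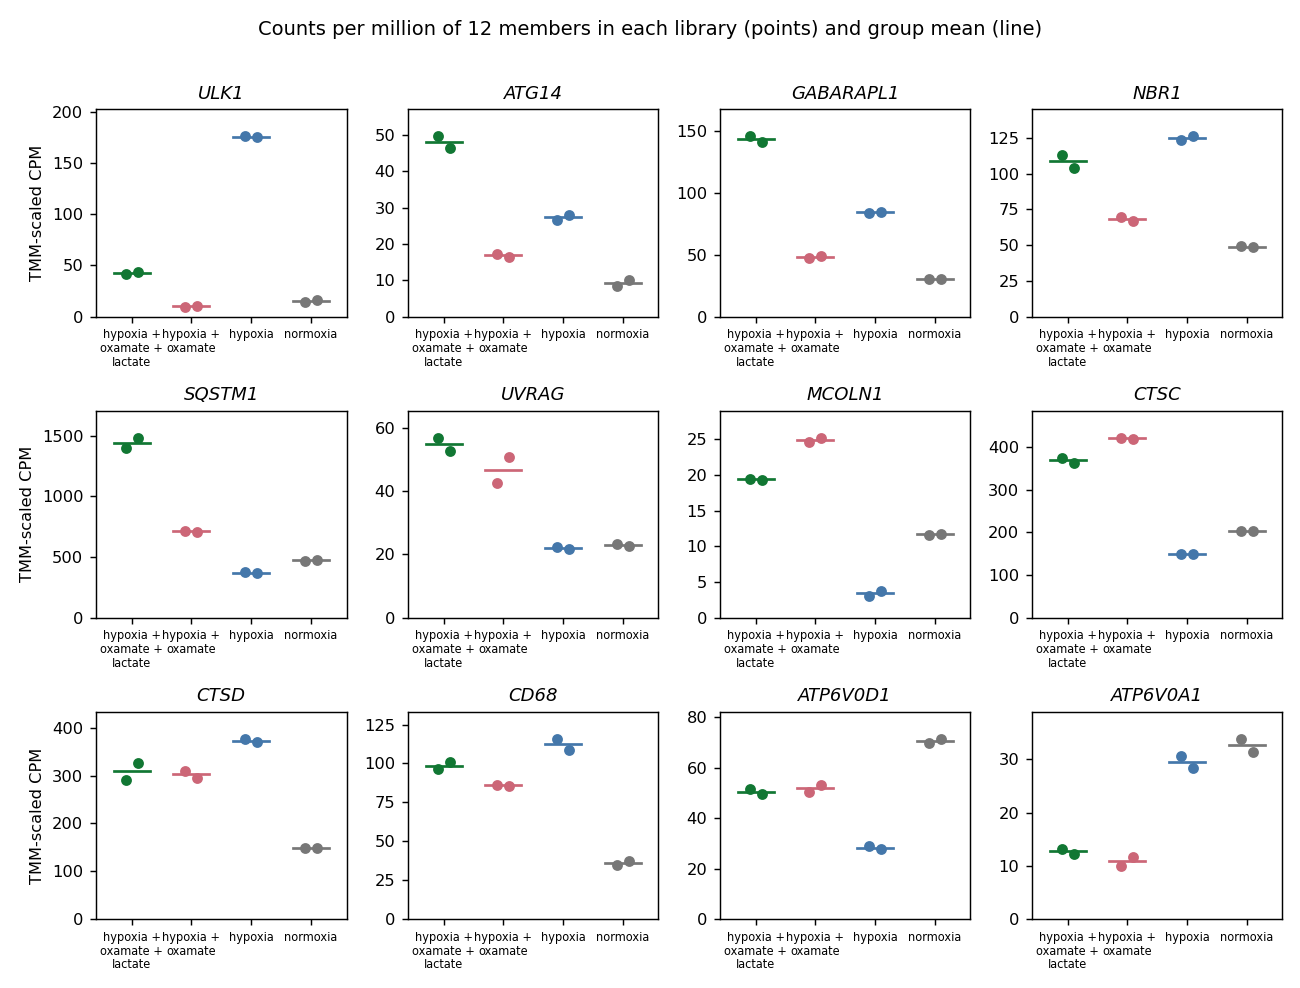
TMM-scaled CPM of 12 members in each library (points) with the mean of each group (line), for hypoxia with oxamate and lactate, hypoxia with oxamate, hypoxia and normoxia from left to right. Each panel has its own vertical axis, starting at 0. ULK1 reaches about 176 CPM in hypoxia and about 10.1 CPM with oxamate, while MCOLN1 is lowest in hypoxia at a mean of 3.41 CPM.

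GABARAPL1 (ENSG00000139112, chromosome 12 from 10212458 to 10223130) encodes an ATG8 protein that is attached to the autophagosome membrane. Its promoter window printed above was placed by a RefSeq start and lies wholly after this GENCODE start. It was at 145 and 141 CPM with oxamate and lactate, 46.96 and 49.2 CPM with oxamate, 83.7 and 84.7 CPM in hypoxia and 30.02 and 30.1 CPM in normoxia. The groups did not overlap and stood in the same order as for ATG14. GABARAPL1 was higher in hypoxia than in normoxia (1.49 ± 0.047, adjusted p = 1.61e-17, edgeR), lower with oxamate than in hypoxia (-0.81 ± 0.045, adjusted p = 2.21e-13) and higher with lactate than with oxamate (1.57 ± 0.044, adjusted p = 3.43e-18). MAP1LC3B, the gene of LC3B, averaged 71.8 ± 2.8 CPM with oxamate and lactate, 45.3 ± 0.409 CPM with oxamate, 38.02 ± 0.69 CPM in hypoxia and 34.3 ± 0.529 CPM in normoxia (SD, n = 2 each). Its differences were 0.15 ± 0.054 in hypoxia, 0.25 ± 0.053 with oxamate and 0.67 ± 0.051 with lactate, all higher, and the call in hypoxia was lost in at least one of the alternative analyses. It shares 150 exon bases with FBXO31 on the opposite strand, at 53.3% of its mean level.

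The conjugation enzyme genes had closer levels across the groups. ATG5, part of the enzyme that attaches ATG8 proteins to lipid, averaged 53.5 ± 1.08 CPM with oxamate and lactate, 47.7 ± 1.62 CPM with oxamate, 51.9 ± 1.59 CPM in hypoxia and 40.1 ± 0.501 CPM in normoxia (SD, n = 2 each). ATG7, the E1-like activating enzyme, averaged 20.2 ± 0.503 CPM with oxamate and lactate, 23.3 ± 2.41 CPM with oxamate, 22.4 ± 0.529 CPM in hypoxia and 19.7 ± 0.237 CPM in normoxia (SD, n = 2 each). ATG7 shares 18.1% of its exon bases with VGLL4 on the opposite strand, at 204% of its mean level. In this group of 4 genes, all 4 were higher in hypoxia, 1 was higher and 2 were lower with oxamate, and 3 were higher and 1 lower with lactate. Of all tested genes, 36.7% were higher in hypoxia, 35.7% higher and 44.8% lower with oxamate, and 33.2% higher and 31.7% lower with lactate. The ATG7 calls were each lost in at least one alternative analysis, as were the ATG5 calls with oxamate and with lactate.

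The receptor gene SQSTM1 (ENSG00000161011, chromosome 5 from 179806398 to 179838078) encodes p62, which links ubiquitinated cargo to ATG8 proteins. Its level was 1398 and 1483 CPM with oxamate and lactate, 716 and 709 CPM with oxamate, 375 and 367 CPM in hypoxia and 469.8 and 476 CPM in normoxia. Hypoxia had the lowest level and lactate the highest, with no overlap between groups. SQSTM1 was lower in hypoxia than in normoxia (-0.35 ± 0.031, adjusted p = 9.04e-10, edgeR), higher with oxamate than in hypoxia (0.94 ± 0.031, adjusted p = 1.33e-17) and higher again with lactate than with oxamate (1.02 ± 0.030, adjusted p = 7.63e-18). Against hypoxia alone, oxamate with lactate gave 1.96 ± 0.031. SQSTM1 shares 1.37% of its exon bases with MGAT4B on the opposite strand, at 21.8% of its mean level.

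NBR1 (ENSG00000188554, chromosome 17 from 43170481 to 43211689), a receptor that acts with p62, followed another order. It was at 113 and 104 CPM with oxamate and lactate, 70.03 and 67.04 CPM with oxamate, 124 and 126 CPM in hypoxia and 49.5 and 48.6 CPM in normoxia. Hypoxia was highest and normoxia lowest, and the groups did not overlap. It was higher in hypoxia than in normoxia (1.35 ± 0.046, adjusted p = 5.42e-17, edgeR), lower with oxamate (-0.86 ± 0.045, adjusted p = 5.88e-14) and higher with lactate (0.66 ± 0.047, adjusted p = 2.55e-11). TAX1BP1, the third receptor, averaged 363 ± 10.3 CPM with oxamate and lactate, 359 ± 6.16 CPM with oxamate, 291 ± 7.71 CPM in hypoxia and 189.5 ± 6.17 CPM in normoxia (SD, n = 2 each). It passed as higher in hypoxia (0.62 ± 0.035) and with oxamate (0.30 ± 0.034), and its value with lactate was 0.02 ± 0.034 (adjusted p = 0.704), with a sign that changed under other scalings.

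TFEB (ENSG00000112561, chromosome 6 from 41683978 to 41736259, minus strand) had the lowest level per kilobase of exon among the tested members in each group. It was at 6.3 and 5.83 CPM with oxamate and lactate, 2.9 and 3.44 CPM with oxamate, 3.16 and 2.78 CPM in hypoxia and 4.35 and 3.29 CPM in normoxia. The lactate libraries lay above all others, and the oxamate libraries overlapped those of hypoxia and of normoxia. TFEB was higher with lactate than with oxamate (0.93 ± 0.184, adjusted p = 0.000116, edgeR), while its values of -0.36 ± 0.185 in hypoxia against normoxia (adjusted p = 0.0899) and 0.09 ± 0.193 in oxamate against hypoxia (adjusted p = 0.663) did not pass. TFE3 (ENSG00000068323, chromosome X from 49028726 to 49043486, minus strand) was at 83.3 and 88.4 CPM with oxamate and lactate, 77.7 and 73.3 CPM with oxamate, 56.2 and 55.1 CPM in hypoxia and 49.7 and 51.6 CPM in normoxia. Each group lay above the one named after it, with no overlap between them. It passed as higher in all 3 comparisons, at 0.13 ± 0.050 in hypoxia (adjusted p = 0.02), 0.44 ± 0.048 with oxamate (adjusted p = 2.48e-08) and 0.19 ± 0.047 with lactate (adjusted p = 0.00153). The calls in hypoxia and with lactate were each lost in at least one alternative analysis, and the value with lactate reversed to -0.0042 under upper quartile factors. These factors are also controlled by their location in the cell, which was not measured.

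Among the hydrolases, 8 of 9 tested genes were higher and 1 was lower in hypoxia than in normoxia, with a median of 0.70. With oxamate 7 were higher and 2 lower than in hypoxia (median 0.37), and with lactate 1 was higher and 6 lower than with oxamate (median -0.37). Of all tested genes 36.7% were higher and 36.8% lower in hypoxia, 35.7% and 44.8% in oxamate over hypoxia, and 33.2% and 31.7% in lactate over oxamate. Oxamate in hypoxia against normoxia gave 9 higher of 9, with a median of 0.90, where 31.9% of all tested genes were higher and 40.1% lower.

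CTSD (ENSG00000117984, chromosome 11 from 1752752 to 1764573, minus strand), the main lysosomal aspartic protease, was at 292 and 326 CPM with oxamate and lactate, 311 and 296 CPM with oxamate, 377 and 370.1 CPM in hypoxia and 148 and 149 CPM in normoxia. Normoxia was lowest, hypoxia highest, and both oxamate groups overlapped each other. It was higher in hypoxia than in normoxia (1.33 ± 0.043, adjusted p = 1.16e-14, edgeR) and lower with oxamate than in hypoxia (-0.30 ± 0.042, adjusted p = 3.78e-06), and its value with lactate was 0.03 ± 0.042 (adjusted p = 0.585).

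CTSC (ENSG00000109861, chromosome 11 from 88293592 to 88337787, minus strand), a dipeptidyl peptidase that activates serine proteases of immune cells, was at 375 and 363 CPM with oxamate and lactate, 422 and 419 CPM with oxamate, 149.5 and 148 CPM in hypoxia and 204 and 204 CPM in normoxia. It was the only hydrolase member that was lower in hypoxia than in normoxia (-0.45 ± 0.032, adjusted p = 2.23e-11, edgeR), and with oxamate it lay well above both groups without drug (1.5 ± 0.032 against hypoxia, adjusted p = 6.83e-21). CTSZ (ENSG00000101160, chromosome 20 from 58995185 to 59007247, minus strand), a carboxypeptidase, was at 11.7 and 11.2 CPM with oxamate and lactate, 12.5 and 12.5 CPM with oxamate, 4.21 and 5.31 CPM in hypoxia and 3.01 and 2.66 CPM in normoxia. It was higher in hypoxia than in normoxia (0.75 ± 0.152, adjusted p = 0.00014) and higher with oxamate than in hypoxia (1.39 ± 0.126, adjusted p = 1.02e-09), and its value with lactate was -0.13 ± 0.116 and did not pass (adjusted p = 0.359).

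CTSB, a cysteine protease, averaged 74.7 ± 0.19 CPM with oxamate and lactate, 99.8 ± 0.949 CPM with oxamate, 166 ± 6.13 CPM in hypoxia and 89.8 ± 4.28 CPM in normoxia (SD, n = 2 each). Like CTSD it was higher in hypoxia (0.89 ± 0.041) and lower with oxamate (-0.74 ± 0.041), and it was lower again with lactate (-0.42 ± 0.045). CTSA, which protects and activates NEU1, averaged 137 ± 7.96 CPM with oxamate and lactate, 217 ± 1.59 CPM with oxamate, 169 ± 1.52 CPM in hypoxia and 145 ± 0.558 CPM in normoxia (SD, n = 2 each). CTSA differed by 0.22 ± 0.038 in hypoxia, 0.36 ± 0.037 with oxamate and -0.66 ± 0.039 with lactate. The sialidase gene NEU1 averaged 53.95 ± 0.341 CPM with oxamate and lactate, 32.4 ± 1.4 CPM with oxamate, 23.2 ± 0.866 CPM in hypoxia and 14.2 ± 1.97 CPM in normoxia (SD, n = 2 each). It was the hydrolase member that was higher in all 3 comparisons, at 0.70 ± 0.081, 0.48 ± 0.074 and 0.74 ± 0.069 in the same order.

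The remaining hydrolases were CTSH, an aminopeptidase, HEXA, a subunit of beta-hexosaminidase, and GUSB, the beta-glucuronidase. All 3 were higher in hypoxia than in normoxia, by 0.48 ± 0.044, 0.73 ± 0.043 and 0.15 ± 0.051 in that order, and the GUSB call was lost in at least one alternative analysis. They were higher with oxamate than in hypoxia, by 0.37 ± 0.042, 0.18 ± 0.041 and 0.66 ± 0.049. With lactate all 3 were lower than with oxamate, at -0.58 ± 0.044, -0.37 ± 0.043 and -0.57 ± 0.050. CTSL, a cysteine protease, had 1 count in a single lactate library and 0 in the other 7 libraries, where 3 counts correspond to between 0.102 and 0.137 CPM of the library totals. Its paralog CTSV had between 985 and 1877 counts per library, and how the authors' counting divided reads between such paralogs is not stated.

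In the lysosomal membrane group, MCOLN1 (ENSG00000090674, chromosome 19 from 7522626 to 7534009), whose promoter with both CACGTG copies is printed above, was at 19.4 and 19.4 CPM with oxamate and lactate, 24.7 and 25.2 CPM with oxamate, 3.02 and 3.8 CPM in hypoxia and 11.6 and 11.8 CPM in normoxia. Hypoxia lay far below every other group and oxamate was highest, with no overlap. MCOLN1 was lower in hypoxia than in normoxia (-1.78 ± 0.114, adjusted p = 3.72e-12, edgeR), 7.32-fold higher with oxamate than in hypoxia (2.87 ± 0.105, adjusted p = 9.74e-17) and lower with lactate than with oxamate (-0.36 ± 0.084, adjusted p = 0.000611). Its exons share 6 bases with those of PNPLA6, at 418% of its mean level.

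CD68 (ENSG00000129226, chromosome 17 from 7579467 to 7582113), a glycoprotein of the lysosomal membrane known as a macrophage marker, was at 96.1 and 101 CPM with oxamate and lactate, 86.2 and 85.7 CPM with oxamate, 116 and 109 CPM in hypoxia and 34.6 and 37.6 CPM in normoxia. Normoxia was far below the 3 hypoxic groups, which did not overlap. It was higher in hypoxia than in normoxia (1.63 ± 0.050, adjusted p = 6.98e-18, edgeR) and lower with oxamate than in hypoxia (-0.38 ± 0.046, adjusted p = 8.85e-08). With lactate it was higher than with oxamate (0.20 ± 0.047), a call lost under upper quartile factors, the stricter filter and DESeq2 and when either oxamate library was left out (0.10 and 0.095). The leukocyte markers CD14 and PTPRC were at most 0.34 and 0.137 CPM of the total in any library. The overlapping transcript AC016876.2 on the same strand covers 81.7% of CD68's exon bases and had 21.4% of its mean level, so reads of both may be divided between them.

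LAMP1, a major lysosomal membrane glycoprotein, whose promoter with 6 CACGTG copies is printed above, averaged 271 ± 8.36 CPM with oxamate and lactate, 370.2 ± 0.59 CPM with oxamate, 197 ± 5.17 CPM in hypoxia and 191 ± 3.86 CPM in normoxia (SD, n = 2 each). It was higher with oxamate than in hypoxia (0.91 ± 0.034) and lower with lactate than with oxamate (-0.45 ± 0.033), and its value in hypoxia against normoxia was 0.05 ± 0.034 (adjusted p = 0.24, edgeR). LAMP2, needed for fusion of autophagosomes with lysosomes, averaged 123 ± 1.3 CPM with oxamate and lactate, 144 ± 4.5 CPM with oxamate, 139.6 ± 0.96 CPM in hypoxia and 94.5 ± 0.81 CPM in normoxia (SD, n = 2 each). LAMP2 was higher in hypoxia (0.56 ± 0.038), had a value of 0.04 ± 0.037 with oxamate that did not pass (adjusted p = 0.311) and was lower with lactate (-0.22 ± 0.038). The tetraspanin gene CD63 averaged 148 ± 6.91 CPM with oxamate and lactate, 170.1 ± 2.06 CPM with oxamate, 123 ± 0.0989 CPM in hypoxia and 123 ± 0.0715 CPM in normoxia (SD, n = 2 each). CD63 was higher with oxamate (0.47 ± 0.038) and lower with lactate (-0.20 ± 0.038). In this group of 5, 2 were higher and 1 lower in hypoxia, 3 higher and 1 lower with oxamate, and 1 higher and 4 lower with lactate, the higher one being CD68. All tested genes gave 36.7% higher and 36.8% lower in hypoxia, 35.7% and 44.8% in oxamate over hypoxia, and 33.2% and 31.7% in lactate over oxamate.

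The V-ATPase pumps protons into the lysosome through a membrane domain (V0) driven by a cytosolic ATPase domain (V1). ATP6V0D1 (ENSG00000159720, chromosome 16 from 67438014 to 67481237, minus strand), a V0 subunit, was at 51.3 and 49.5 CPM with oxamate and lactate, 50.3 and 53.2 CPM with oxamate, 28.9 and 27.6 CPM in hypoxia and 69.5 and 71.3 CPM in normoxia. Hypoxia was lowest and normoxia highest, and the oxamate groups overlapped each other between them. It was lower in hypoxia than in normoxia (-1.32 ± 0.052, adjusted p = 7.5e-16, edgeR) and higher with oxamate than in hypoxia (0.87 ± 0.055, adjusted p = 1.86e-12), and its value with lactate was -0.04 ± 0.053 (adjusted p = 0.552).

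ATP6V0A1 (ENSG00000033627, chromosome 17 from 42458844 to 42522611), the V0 a1 subunit, was at 13.2 and 12.3 CPM with oxamate and lactate, 10.1 and 11.7 CPM with oxamate, 30.6 and 28.4 CPM in hypoxia and 33.9 and 31.4 CPM in normoxia. Both oxamate groups lay below both groups without drug. It was lower with oxamate than in hypoxia (-1.44 ± 0.085, adjusted p = 5.38e-13, edgeR), while its values of -0.14 ± 0.072 in hypoxia against normoxia (adjusted p = 0.0793) and 0.23 ± 0.1 with lactate (adjusted p = 0.0527) did not pass. Of the V1 subunits, ATP6V1A, the catalytic subunit A, averaged 108 ± 3.84 CPM with oxamate and lactate, 60.2 ± 2.99 CPM with oxamate, 70.4 ± 0.452 CPM in hypoxia and 77.4 ± 2.49 CPM in normoxia (SD, n = 2 each). ATP6V1A was lower in hypoxia than in normoxia (-0.14 ± 0.046), lower with oxamate than in hypoxia (-0.22 ± 0.048) and higher with lactate than with oxamate (0.84 ± 0.048), and the calls in the first 2 of these comparisons were each lost in at least one alternative analysis. The value with oxamate was -0.070 without the second oxamate library. ATP6V1H, a regulatory subunit, averaged 57.4 ± 1.17 CPM with oxamate and lactate, 66.4 ± 1.74 CPM with oxamate, 34.5 ± 1.92 CPM in hypoxia and 44.8 ± 0.0234 CPM in normoxia (SD, n = 2 each), and was higher with oxamate than in hypoxia (0.95 ± 0.052). None of the 4 was higher and 3 were lower in hypoxia than in normoxia, 2 were higher and 2 lower with oxamate than in hypoxia, and 1 was higher and 1 lower with lactate than with oxamate. Over all tested genes the shares were 36.7% higher and 36.8% lower in hypoxia, 35.7% and 44.8% in oxamate over hypoxia, and 33.2% and 31.7% in lactate over oxamate.

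The other genes of the pathway, 122 in 5 lists of which 115 were tested, were counted in the same way. The genes named from them had the largest increase or decrease of their list in a comparison, among genes that passed, averaged 1 or more in log2 CPM and had non-overlapping replicates. In hypoxia 44 of them were higher and 45 lower than in normoxia, with oxamate 61 higher and 38 lower than in hypoxia, and with lactate 46 higher and 51 lower than with oxamate. In hypoxia these were 38.3% higher and 39.1% lower, near the 36.7% and 36.8% of all tested genes. With oxamate they were 53% and 33%, where all tested genes gave 35.7% and 44.8%, and with lactate 40% and 44.3%, where all tested genes gave 33.2% and 31.7%. The counts of each list below are read against the same shares of all tested genes. Of the 33 other hydrolases and their activators, 16 were higher and 7 lower in hypoxia (median 0.14), 20 higher and 8 lower with oxamate (median 0.25), and 3 higher and 22 lower with lactate (median -0.41). The 33 other core autophagy genes were divided in hypoxia, with 13 higher and 14 lower (median -0.11), and with oxamate, with 14 in each direction (median 0.15), while 21 were higher and 10 lower with lactate (median 0.37). Under upper quartile factors the counts with lactate were 3 higher and 30 lower for these hydrolases and 18 higher and 11 lower for these autophagy genes. The shares of all tested genes under those factors were not computed.

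**Figure D4:**
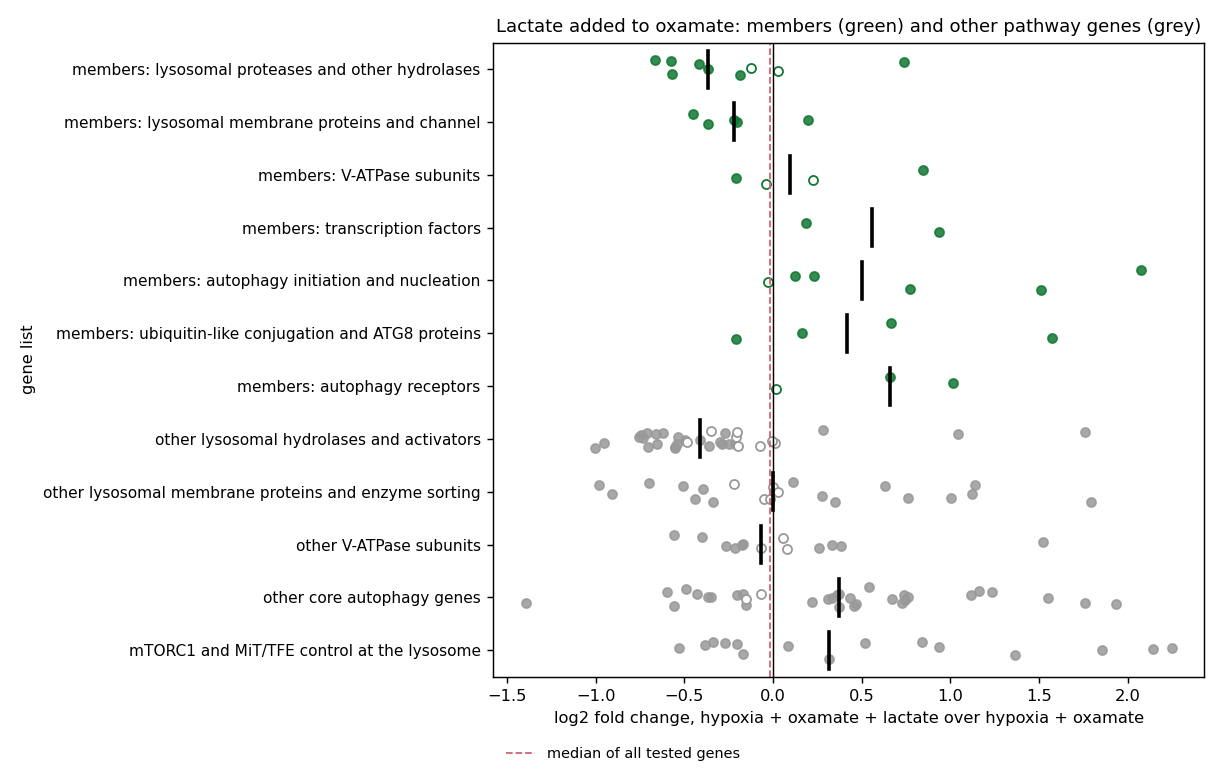
Log2 fold changes of hypoxia with oxamate and lactate over hypoxia with oxamate, for the members by role (green) and the other genes of the pathway by list (grey). Filled points passed at an adjusted p under 0.05, black bars are list medians, the dashed line is the median of all 15554 tested genes, and points are spread vertically for legibility. Median bars of the hydrolases lie at -0.37 for the members and -0.41 for the others, and those of the autophagy lists lie above 0.

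Among those other hydrolases, MANBA, the lysosomal beta-mannosidase, was the largest increase in hypoxia that met this rule (1.27 ± 0.077) and ACP2, a lysosomal acid phosphatase, the largest decrease (-1.81 ± 0.074). ACP2 was at 14.5 and 13.3 CPM with oxamate and lactate, 27.9 and 27.8 CPM with oxamate, 10.04 and 10.03 CPM in hypoxia and 35.2 and 35.2 CPM in normoxia, and was also the largest decrease with lactate (-1.0 ± 0.077). It shares exon bases with NR1H3 on the opposite strand, at 37.3% of its mean level. With oxamate the largest decrease that met this rule was that of the ganglioside activator gene GM2A (-0.83 ± 0.064). PSAP, the precursor of the saposins, was the largest increase with lactate that met this rule (0.28 ± 0.029). FUCA1, the lysosomal alpha-fucosidase, and CTSK, a cysteine protease, lay below the minimum level and are named after their values were seen. Both had larger increases with lactate (1.76 ± 0.365 for FUCA1 and 1.04 ± 0.31 for CTSK) and larger decreases with oxamate (-2.45 ± 0.336 for FUCA1 and -2.03 ± 0.283 for CTSK), and CTSK had a larger increase in hypoxia (1.33 ± 0.258).

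Among the other core autophagy genes, the receptor gene OPTN was the largest increase in hypoxia. Its level was 95.3 and 90.9 CPM with oxamate and lactate, 57.03 and 60.04 CPM with oxamate, 119 and 126 CPM in hypoxia and 31.7 and 29.5 CPM in normoxia (2.001 ± 0.051 in hypoxia against normoxia). ATG101, a subunit of the ULK1 kinase complex, was the largest decrease there (-1.34 ± 0.065), so that it and ULK1 differed in opposite directions. With oxamate the extremes were ATG16L1, part of the enzyme that lipidates ATG8 proteins, at 1.48 ± 0.066, and RB1CC1, which encodes the ULK1 complex scaffold FIP200, at -1.9 ± 0.044. RB1CC1 was at 158 and 154 CPM with oxamate and lactate, 51.5 and 55.3 CPM with oxamate, 198 and 201 CPM in hypoxia and 100.4 and 94.01 CPM in normoxia, with hypoxia highest and oxamate lowest as for ULK1. With lactate they were EPG5, a tether for fusion with the lysosome, at 1.93 ± 0.101 and the membrane protein gene VMP1 at -1.39 ± 0.037.

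In the list of membrane and sorting proteins (21 tested), 7 were higher and 12 lower in hypoxia, 8 higher and 9 lower with oxamate, and 9 higher and 7 lower with lactate. The shares with oxamate, 38.1% higher and 42.9% lower, were near those of all tested genes, 35.7% and 44.8%. CTNS, the lysosomal cystine transporter, was at 17.9 and 20.01 CPM with oxamate and lactate, 36.7 and 34.7 CPM with oxamate, 6.55 and 6.12 CPM in hypoxia and 33.6 and 33.2 CPM in normoxia. As for MCOLN1, hypoxia was far below the other groups, with differences of -2.4 ± 0.084 in hypoxia against normoxia and 2.49 ± 0.084 in oxamate against hypoxia. SCARB2, a lysosomal membrane protein, was the largest increase in hypoxia (0.68 ± 0.048). The sialic acid exporter gene SLC17A5 was the largest decrease with oxamate (-2.16 ± 0.101) and the largest increase with lactate (1.79 ± 0.107), and the channel gene TPCN2 was the largest decrease with lactate (-0.98 ± 0.156).

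For the other V-ATPase subunits (13 tested) 3 were higher and 6 lower in hypoxia, 10 higher and 1 lower with oxamate, and 4 higher and 6 lower with lactate. With oxamate these were 76.9% higher and 7.69% lower, against 35.7% and 44.8% of all tested genes. ATP6V0A2, another V0 a subunit, was at 35.2 and 35.98 CPM with oxamate and lactate, 27.6 and 28.97 CPM with oxamate, 9.23 and 8.69 CPM in hypoxia and 37.6 and 35.9 CPM in normoxia. It was the largest decrease in hypoxia (-2.03 ± 0.074), where ATP6V0A1 had a value of -0.14 ± 0.072 that did not pass. ATP6AP2, an accessory subunit, was the largest increase in hypoxia (0.43 ± 0.039), and with oxamate the extremes were ATP6V0B at 1.68 ± 0.049 and ATP6V1B2 at -1.33 ± 0.051. ATP6V1B2 was the largest increase with lactate (1.52 ± 0.052) and ATP6V0C, which forms the proton-carrying ring, the largest decrease (-0.56 ± 0.098).

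In the list of mTORC1 and MiT/TFE control (15 tested) 5 were higher and 6 lower in hypoxia, 9 higher and 6 lower with oxamate, and 9 higher and 6 lower with lactate. The shares in hypoxia, 33.3% higher and 40% lower, were near those of all tested genes, 36.7% and 36.8%. MTOR, the kinase that restrains ULK1 and TFEB when nutrients suffice, was at 80.1 and 80.4 CPM with oxamate and lactate, 101 and 108 CPM with oxamate, 28.2 and 27.1 CPM in hypoxia and 72.5 and 71.5 CPM in normoxia. Hypoxia was lowest and oxamate highest, with differences of -1.38 ± 0.051 in hypoxia against normoxia and 1.92 ± 0.050 in oxamate against hypoxia. FNIP1 and FNIP2 encode partners of folliculin, a regulator of TFEB and TFE3. FNIP1 was the largest increase in hypoxia (0.80 ± 0.068) and with lactate (2.25 ± 0.067), and FNIP2 the largest decrease with oxamate (-1.7 ± 0.161). The scaffold gene LAMTOR1 was the largest decrease with lactate (-0.53 ± 0.051).

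Set against hypoxia alone, the libraries with oxamate and lactate had 19 members higher and 10 lower, with a median of 0.38, where 38.5% and 40.2% of all tested genes were higher and lower and the median was -0.05. MCOLN1 (2.51 ± 0.11), SQSTM1 (1.96 ± 0.031), CTSC (1.31 ± 0.032), UVRAG (1.3 ± 0.074), CTSZ (1.27 ± 0.129), NEU1 (1.22 ± 0.071) and TFEB (1.03 ± 0.182) were at least 2-fold higher. ULK1 (-2.04 ± 0.047), ATP6V0A1 (-1.22 ± 0.085) and CTSB (-1.15 ± 0.043) were at least 2-fold lower. Those 7 and 3 members compare with 14.7% and 22.8% of all tested genes past 2-fold in each direction. Oxamate in hypoxia set against normoxia gave 26 members higher and 5 lower, where 31.9% of all tested genes were higher and 40.1% lower, with a median of 0.59 and a median of -0.14 over all tested genes. There 7 members were at least 2-fold higher and 1 at least 2-fold lower, against 7.32% and 20.2% of all tested genes.

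The summed level of the 34 members was 4684 and 4776 CPM with oxamate and lactate, 4026 and 4001 CPM with oxamate, 3287 and 3243 CPM in hypoxia and 2525 and 2540 CPM in normoxia. The 3 receptors alone held 1881 and 1943 CPM of it with oxamate and lactate and 713 and 710 CPM in normoxia, with most of that from SQSTM1. The 10 hydrolases summed to 1145 and 1181 CPM with oxamate and lactate, 1390 and 1370 CPM with oxamate, 1124 and 1102 CPM in hypoxia and 761 and 772 CPM in normoxia. Shares of a sum, and the levels of partners that share exon bases, were compared as CPM without regard to length. For ranks of the members, levels were taken per kilobase of merged exon length. On that scale SQSTM1 and CTSD held the first 2 places with oxamate and lactate (188 and 98.8 CPM per kilobase), with oxamate (93.1 and 96.97) and in normoxia (61.8 and 47.5). In hypoxia CTSD was first at 119.5 CPM per kilobase, followed by CD68 at 51.3 and SQSTM1 at 48.5. ULK1 ranked 9 of the 34 members in hypoxia, but 28 with oxamate and lactate, 31 with oxamate and 29 in normoxia, and TFEB was 33 in every group, above CTSL alone.

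For 18 of the 34 members, exons share bases with those of another gene in GENCODE release 29. A partner reached at least 10% of the member's mean level for 7 of them, namely CD68, MCOLN1, BECN1, ATG7, MAP1LC3B and SQSTM1 as given above and WIPI1, which shares 24.3% of its exon bases with ARSG at 29.1% of its level. Where strand was not used in counting, reads of opposite-strand partners cannot be told apart.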

How the data were processed

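Poly(A)-selected mRNA of 8 libraries in 4 groups of 2 was measured as 1 table of raw gene counts, which the authors deposited as whole numbers without normalization. The submitters' processing notes name, without a role, the aligner STAR 2.7.8a, the quantifier RSEM 1.3.3, the read check FastQC 0.11.9 and the build GRCh38 (hg38). The counts may therefore be RSEM estimates rounded before deposit, which can shift reads between paralogs and overlapping genes. The sources used here give neither strandedness nor annotation release.

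Columns were assigned to groups by the labels. Tests used edgeR 4.0.16 (limma 3.58.1, R 4.3.3). The filterByExpr minimum was 10 counts, which kept 15554 of 61517 genes, and scaling was by TMM. A robust quasi-likelihood model had 4 group means, leaving 4 residual degrees of freedom, and 5 comparisons were tested two-sided. Adjusted p-values (Benjamini-Hochberg, every tested gene) passed under 0.05. Standard errors came from the F statistic. Levels are TMM-scaled CPM, with mean and SD over 2 libraries. Simulated data with known changes were used to test the method. Standard errors and SDs include the spread between libraries, while floors of 3 counts cover counting error only.

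The 34 members and all gene lists were chosen with earlier results of these data known. Values per library were given for members that passed with a log2 fold change of at least 1 in size in hypoxia against normoxia or in oxamate against hypoxia, and for TFEB and TFE3. ACP2, OPTN, RB1CC1, CTNS, ATP6V0A2 and MTOR were given per library after their values were seen. A gene that the naming rule selected in oxamate against hypoxia is not reported here. Positions came from GENCODE release 29 and promoter windows from RefSeq. Alternatives were RLE and upper quartile factors, no filter, at least 50 counts in 2 libraries as the filter, a replicate block, DESeq2 1.42.0, testing against a 1.5-fold change, fitting only the 2 groups compared and omitting each library in turn.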

Additional observations from a re-analysis of the deposited data

How the results depend on the processing

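Each of 165 member tests was recomputed under the alternatives. Aside from the test against a fold change of 1.5, this gave 1815 values, of which 72 lost the call, 24 gained it and 33 changed sign. Under these same alternatives calls were kept in every alternative for 22 of 27 members in hypoxia against normoxia, 27 of 29 in oxamate against hypoxia, 21 of 27 in lactate with oxamate against oxamate, 27 of 29 in lactate with oxamate against hypoxia and 28 of 31 in oxamate against normoxia. Against a fold change of 1.5 the call was lost in 76 of the 165 tests. The counts of members were 8 higher and 2 lower in hypoxia against normoxia, 10 and 6 in oxamate against hypoxia, 8 and 1 in lactate with oxamate against oxamate, and 15 and 1 in oxamate against normoxia, with 13 higher and 3 lower in lactate with oxamate against hypoxia. These smaller counts follow from the larger difference that this test asks for. The shares of all tested genes under this test were not computed, so these counts are not set against a background.

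Leaving out 1 library in turn gave 16 to 18 higher and 6 to 8 lower in hypoxia against normoxia, 18 to 20 and 9 to 11 in oxamate against hypoxia, 10 to 16 and 11 to 12 in lactate with oxamate against oxamate, and 25 to 26 and 4 to 5 in oxamate against normoxia. In lactate with oxamate against hypoxia it gave 19 and 10 each time. For these fits the shares of all tested genes were not computed either. The members' median in lactate with oxamate against oxamate lay between -0.036 and 0.10 in these fits, was 0.083 without a low-count filter, and was -0.028 with RLE factors, -0.16 with upper quartile factors and -0.089 with the stricter filter.

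Upper quartile factors moved the median of all genes by 0.105, -0.19 and -0.26 in hypoxia against normoxia, lactate with oxamate against oxamate and lactate with oxamate against hypoxia. The stricter filter moved it by 0.16 and -0.11 in oxamate against hypoxia and lactate with oxamate against oxamate and by 0.13 in oxamate against normoxia, where no filter also moved it by 0.13. The other sign changes were of small values, and their cause was not tested. In hypoxia against normoxia, CD63 was at 0.0012 with RLE factors, 0.10 with upper quartile factors, 0.044 with the stricter filter and 0.0030 in the 2 groups alone, and UVRAG at 0.057 with upper quartile factors. In oxamate against hypoxia, upper quartile factors gave -0.027 for LAMP2 and -0.0063 for ATG7, and leaving out a library gave -0.29 to 0.057 for WIPI1 and -0.15 to 0.017 for ATG5. In lactate with oxamate against oxamate, CTSD was at -0.028 with RLE factors, -0.16 with upper quartile factors, -0.089 with the stricter filter, -0.025 with DESeq2 and -0.10 to 0.10 with a library left out. TAX1BP1 was at -0.040, -0.17, -0.10 and -0.037 in the same 4 settings and -0.10 to 0.056 with a library left out. Upper quartile factors also turned TFE3 to -0.0042, BECN1 to -0.068 and ATG5 to -0.026, and with a library left out WIPI1 lay between -0.29 and 0.057 and ATP6V0D1 between -0.18 and 0.0014. In lactate with oxamate against hypoxia, upper quartile factors gave -0.17 for GUSB and -0.22 for ATG5, which was at -0.040 with the stricter filter. In oxamate against normoxia WIPI1 lay between -0.035 and 0.32 with a library left out.

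No pairing by replicate number was seen in the values. Deviations of same-numbered libraries correlated between -0.0502 and 0.0118, and the replicate block changed the call of none of the 165 member tests. The labels do not say whether same-numbered libraries were handled together. With 2 libraries a group, each gene had 4 residual degrees of freedom of its own. The model combined this spread with an estimate drawn from all tested genes, and the small p-values rest on both.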
